A study of Mus musculus with 20 samples.

Results

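Collagens are the main structural proteins of the extracellular matrix, and each is built from chains that wind around one another. All protein-coding genes of the deposited count table whose names follow the pattern of a collagen chain (Col, a type number, a, a chain number) and that had at least 1 count were taken, which gave 44 chains of 54532 genes. They were measured in liver and kidney from male C57BL/6 mice labelled Lxrα-/-, that is, without functional copies of the nuclear receptor LXRα (gene Nr1h3), and of male C57BL/6 mice labelled wild type. The 4 groups held 5 libraries each, and the study counted 5 mice per genotype. All mice shared the C57BL/6 background and the male sex, no treatment was named, and the age, the design of the allele and the cells in which it acts are not given in the sources used here. Tissue was flash frozen and RNA was sequenced from whole kidney and liver tissue, so a lower level of a chain cannot be told apart from fewer of the cells that make it. Wild-type libraries carry the numbers 1, 3, 4, 5 and 6, knockout libraries 1 to 5.

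Collagen chains assemble in the endoplasmic reticulum after hydroxylation and glycosylation, and most are secreted as procollagens that are trimmed, laid down and cross-linked outside the cell. Types I, III and V form the banded fibrils of the interstitium and are made mainly by fibroblasts, pericytes and, in the liver, stellate cells. Type IV forms the sheet of every basement membrane: chains α1 and α2 are found in nearly all of them, whereas α3, α4 and α5 form the network of the mature glomerular basement membrane, a podocyte product. Type VI makes beaded filaments around cells, fibril-associated types such as XII and XIV sit on the surface of fibrils, and types XV and XVIII carry glycosaminoglycan chains in basement membrane zones. Type XVIII is a known hepatocyte product.

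The 44 chains matched 35 entries among the RefSeq promoter windows of GRCm38.p6, which run from 250 bases before to 50 bases after a transcription start. The 4 windows below belong to chains on which the results turn: Col4a2, which shares its start region head to head with Col4a1 (chr8:11312555-11312854, plus strand), Col1a2 (chr6:4505368-4505667, plus strand), Col3a1 (chr1:45311288-45311587, plus strand) and Col19a1, the chain that was higher in labelled knockout kidney (chr1:24587388-24587687, minus strand). Capitals mark a CCAAT box (CCAAT), a GC box (GGGCGG) or a TATA box (TATAAA), each searched on both strands.
Col4a2: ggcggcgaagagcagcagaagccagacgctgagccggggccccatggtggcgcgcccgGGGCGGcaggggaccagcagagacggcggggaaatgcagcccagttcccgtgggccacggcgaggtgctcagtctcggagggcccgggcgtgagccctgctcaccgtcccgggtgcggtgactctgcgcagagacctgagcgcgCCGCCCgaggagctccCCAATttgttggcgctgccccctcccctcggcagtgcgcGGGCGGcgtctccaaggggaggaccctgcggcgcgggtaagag
Col1a2: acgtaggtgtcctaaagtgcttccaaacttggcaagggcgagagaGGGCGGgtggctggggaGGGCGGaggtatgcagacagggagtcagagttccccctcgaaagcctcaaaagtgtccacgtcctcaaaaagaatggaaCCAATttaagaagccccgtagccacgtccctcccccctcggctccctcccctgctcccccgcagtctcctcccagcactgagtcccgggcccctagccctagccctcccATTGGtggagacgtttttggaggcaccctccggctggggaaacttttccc
Col3a1: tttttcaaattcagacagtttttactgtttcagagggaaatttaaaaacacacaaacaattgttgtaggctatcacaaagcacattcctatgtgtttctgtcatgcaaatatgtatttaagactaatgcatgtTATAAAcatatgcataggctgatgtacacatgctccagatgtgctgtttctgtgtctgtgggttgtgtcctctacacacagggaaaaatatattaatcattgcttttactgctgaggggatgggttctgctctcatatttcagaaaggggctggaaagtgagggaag
Col19a1: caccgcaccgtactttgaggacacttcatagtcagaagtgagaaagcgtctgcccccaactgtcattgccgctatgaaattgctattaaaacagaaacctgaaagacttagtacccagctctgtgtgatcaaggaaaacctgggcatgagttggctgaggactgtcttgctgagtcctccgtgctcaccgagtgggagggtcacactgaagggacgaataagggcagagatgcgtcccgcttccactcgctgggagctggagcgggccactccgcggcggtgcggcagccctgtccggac
The Col4a2 window held 3 GC boxes and 1 CCAAT box, the Col1a2 window 2 GC boxes and 2 CCAAT boxes, and the Col3a1 window 1 TATA box. The Col19a1 window held none of these letters. The Col1a2 window lies 804 bases downstream of the start that the count table gives for that gene. Among the 35 chains, 22 windows held a GC box (62.9%, against 48.2% of all 16492 windows), 12 a CCAAT box (34.3% against 38.8%) and 5 a TATA box (14.3% against 12.9%). The spaced repeat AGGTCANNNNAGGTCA, a form of the element that LXR and its partner RXR are known to bind, was found in 0 of the 35 windows and in 1 of the 16492. These matches describe the letters of the windows only.

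Nr1h3 itself was not lower in the libraries labelled knockout. Its level, in CPM (counts scaled to library size, here over all 20 libraries), was 103 ± 18.8 (SD, n = 5) in labelled knockout kidney against 41.4 ± 2.14 in wild-type kidney, and 209 ± 24.8 in labelled knockout liver against 122 ± 17.9 in wild-type liver, with no overlap in either tissue. Counts over the whole gene do not show which of its exons were read, so the labels are used as given. The tissue labels matched the levels of the hepatocyte gene Alb (93039 CPM in wild-type liver, 3.60 in wild-type kidney) and the proximal tubule gene Slc34a1 (0.0157 and 2888). Libraries held 23421561 to 35376342 counts. Wild-type kidneys 1 and 3 stood apart. Mitochondrially encoded genes took 7.21% and 50.8% of their counts, against 12.6% to 21.1% in the other 8 kidneys. Both lay above the other 3 wild-type kidneys for 19 of the 34 collagen chains tested there. How many of all tested genes had this order was not counted, so it may not be particular to collagen chains. Labelled knockout livers 4 and 5 stood apart for Col15a1 and Col6a6. Numbers of called chains are given with and without these libraries.

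In kidney, chains of fibrils, basement membranes and beaded filaments were lower in the labelled knockout. Of the 34 chains with enough counts to be tested, 13 were lower and 1 was higher at an adjusted p under 0.05 (edgeR quasi-likelihood test, Benjamini-Hochberg over all 16500 genes tested), against a background of 1.87% of all tested genes lower and 0.394% higher. The fitted difference was negative for 33 of the 34, with a median of -1.03 on the log2 scale, against -0.07 over all tested genes. The ranges of the genotypes were separate for 16 chains (6.92% of all tested genes), of which 15 were lower and 1 higher in the labelled knockout. The other 10 chains had too few counts in kidney, at most 24 in any library. Without wild-type kidneys 1 and 3, 12 chains were lower (Col4a5 lost its call), against 3.51% of all tested genes called in either direction. The median was then -0.53, and 25 of 34 differences were negative. For the 13 lower chains, the log2 ratio of the labelled knockout mean to the mean of wild-type kidneys 4, 5 and 6 was -2.52 to -0.60. Their fitted differences over all 10 kidneys were -2.91 to -0.81. Col6a3, Col6a6 and Col4a2 had ratios of -1.14, -1.03 and -0.70, against fitted differences of -1.87, -1.84 and -1.17.

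Collagen counts as a share of all counts outside mitochondrially encoded genes ranged from 0.104% to 0.122% over the labelled knockout kidneys, with a median of 0.120%, and from 0.146% to 0.486% over the wild-type kidneys, with a median of 0.229%. The ranges did not overlap, and wild-type kidney 3 held the highest share. Fibrillar chains made up 0.0123% to 0.0238% of counts in labelled knockout and 0.0290% to 0.156% in wild-type kidney. Collagen IV made up 0.0723% to 0.0771% and 0.0937% to 0.212%, so it remained the most abundant class in all 10 kidneys. The multiplexin share, mostly Col18a1, overlapped between genotypes, at 0.0108% to 0.0135% and 0.0114% to 0.0401%.

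**Figure D1:**
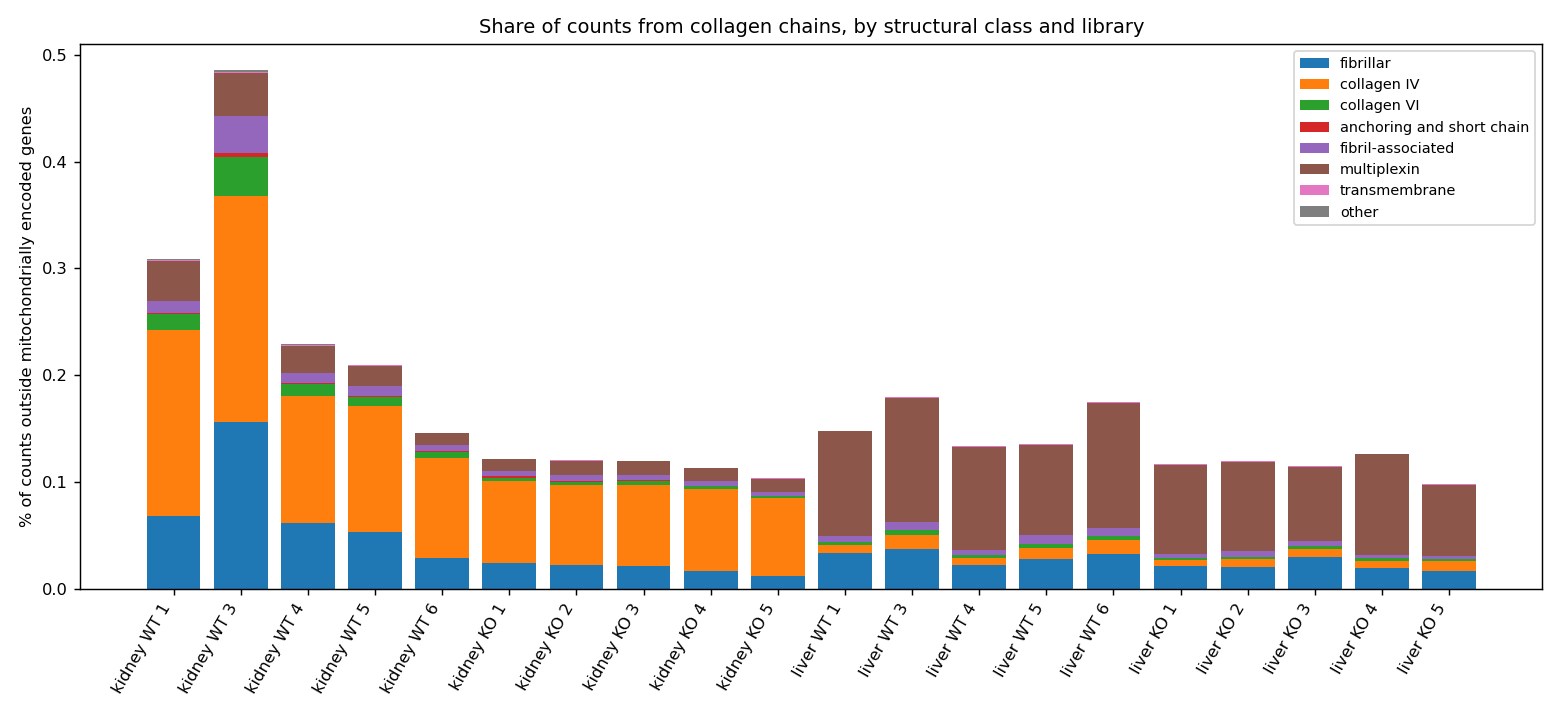
Stacked bars give the share of counts (%) from each structural class of collagen in each of the 20 libraries, with mitochondrially encoded genes left out of the total. The 5 labelled knockout (KO) kidneys lie between 0.104% and 0.122%, all below the 5 wild-type (WT) kidneys, and wild-type kidney 3 reaches 0.486%.

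Markers of several cell types moved with this. The summed level of 12 fibroblast, pericyte and stellate markers was 73.0 to 120 CPM in labelled knockout and 112 to 173 CPM in wild-type kidney. Of these 12, only Thy1 was lower by the test, against 1.87% of all tested genes, and the median difference was -0.75. The 8 endothelial markers summed to 99.1 to 234 and 245 to 287 CPM (1 lower, Cdh5; median -0.75). The 6 podocyte markers summed to 71.4 to 251 and 186 to 305 CPM (median -0.80). edgeR called 0 of these 6, with 4 at an unadjusted p under 0.05, DESeq2 called 1 and limma voom 2. The 8 leukocyte markers summed to 6.05 to 17.7 and 18.2 to 24.8 CPM (median -0.91). edgeR called 0 of the 7 tested, with 5 at an unadjusted p under 0.05, DESeq2 called 1 and limma voom 3. The 9 proximal tubule markers summed to 34845 to 47816 and 19886 to 31910 CPM, without overlap (1 higher by the test, Slc22a6, against 0.394% of all tested genes; median 0.27). Most of that sum was Kap, which was not called (0.71, adjusted p = 0.290), and Slc34a1, Slc5a2, Slc5a12 and Miox differed by 0.02, 0.03, -0.12 and 0.10. The 5 smooth muscle markers overlapped, at 39.2 to 144 and 54.0 to 108 CPM (median -0.05), with 0 calls by edgeR (2 at an unadjusted p under 0.05), 0 by DESeq2 and 1 by limma voom. No marker of these lists was at 0 throughout a kidney group. The part of these differences in the collagen values was not tested.

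Of the chains of interstitial fibrils, 4 were lower, among them the pair with the largest decreases, Col1a1 and Col3a1. Col1a1, which encodes the α1 chain of type I collagen (ENSMUSG00000001506, chr11:94936224-94953042, mm10), was at 54.0, 72.1, 55.1, 38.2 and 13.2 CPM in wild-type kidneys 1, 3, 4, 5 and 6 and at 5.52, 7.29, 7.21, 5.54 and 5.33 CPM in labelled knockout kidneys 1 to 5. Every labelled knockout kidney lay below the lowest wild-type kidney, number 6, which was itself well below the other wild types. The means were 6.18 ± 0.984 and 46.5 ± 22.1 CPM (SD, n = 5), 7.52-fold lower in the labelled knockout (log2 difference -2.91, SE 0.36, adjusted p = 0.00209, edgeR).

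Col1a2, the partner α2 chain (ENSMUSG00000029661, chr6:4504814-4541544), was at 106, 195, 131, 111 and 64.2 CPM in the wild-type and 24.1, 31.2, 30.7, 21.2 and 16.2 CPM in the labelled knockout kidneys. Col3a1, the chain of type III collagen that co-assembles with type I in compliant tissues (ENSMUSG00000026043, chr1:45311538-45349706), was at 114, 230, 128, 125 and 78.6 CPM and at 16.9, 30.3, 31.5, 19.4 and 15.9 CPM. In both chains the groups were well separated, with wild-type kidney 3 highest and 6 lowest of the wild types. Col1a2 was 4.92-fold lower (log2 difference -2.30, SE 0.28, adjusted p = 0.00209) and Col3a1 5.93-fold lower (-2.57, SE 0.30, adjusted p = 0.00208).

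Type V collagen sits inside type I fibrils and limits their width. Its α1 chain, Col5a1, was at 22.2, 39.1, 19.0, 16.0 and 10.1 CPM in the wild-type and 5.90, 6.21, 6.14, 4.78 and 2.90 CPM in the labelled knockout kidneys, with no overlap (log2 difference -2.03, SE 0.33, adjusted p = 0.0105). Col5a2, the usual partner of Col5a1, was just outside the threshold: 28.1 ± 6.57 against 58.2 ± 23.0 CPM, a log2 difference of -1.05 with an adjusted p of 0.0545, and no overlap. The 5 of 9 fibrillar chains that were not called had log2 differences of -1.72 to -0.16 and included Col27a1, a fibrillar chain of cartilage and other matrices (74.6 ± 34.1 against 126 ± 108 CPM).

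**Figure D2:**
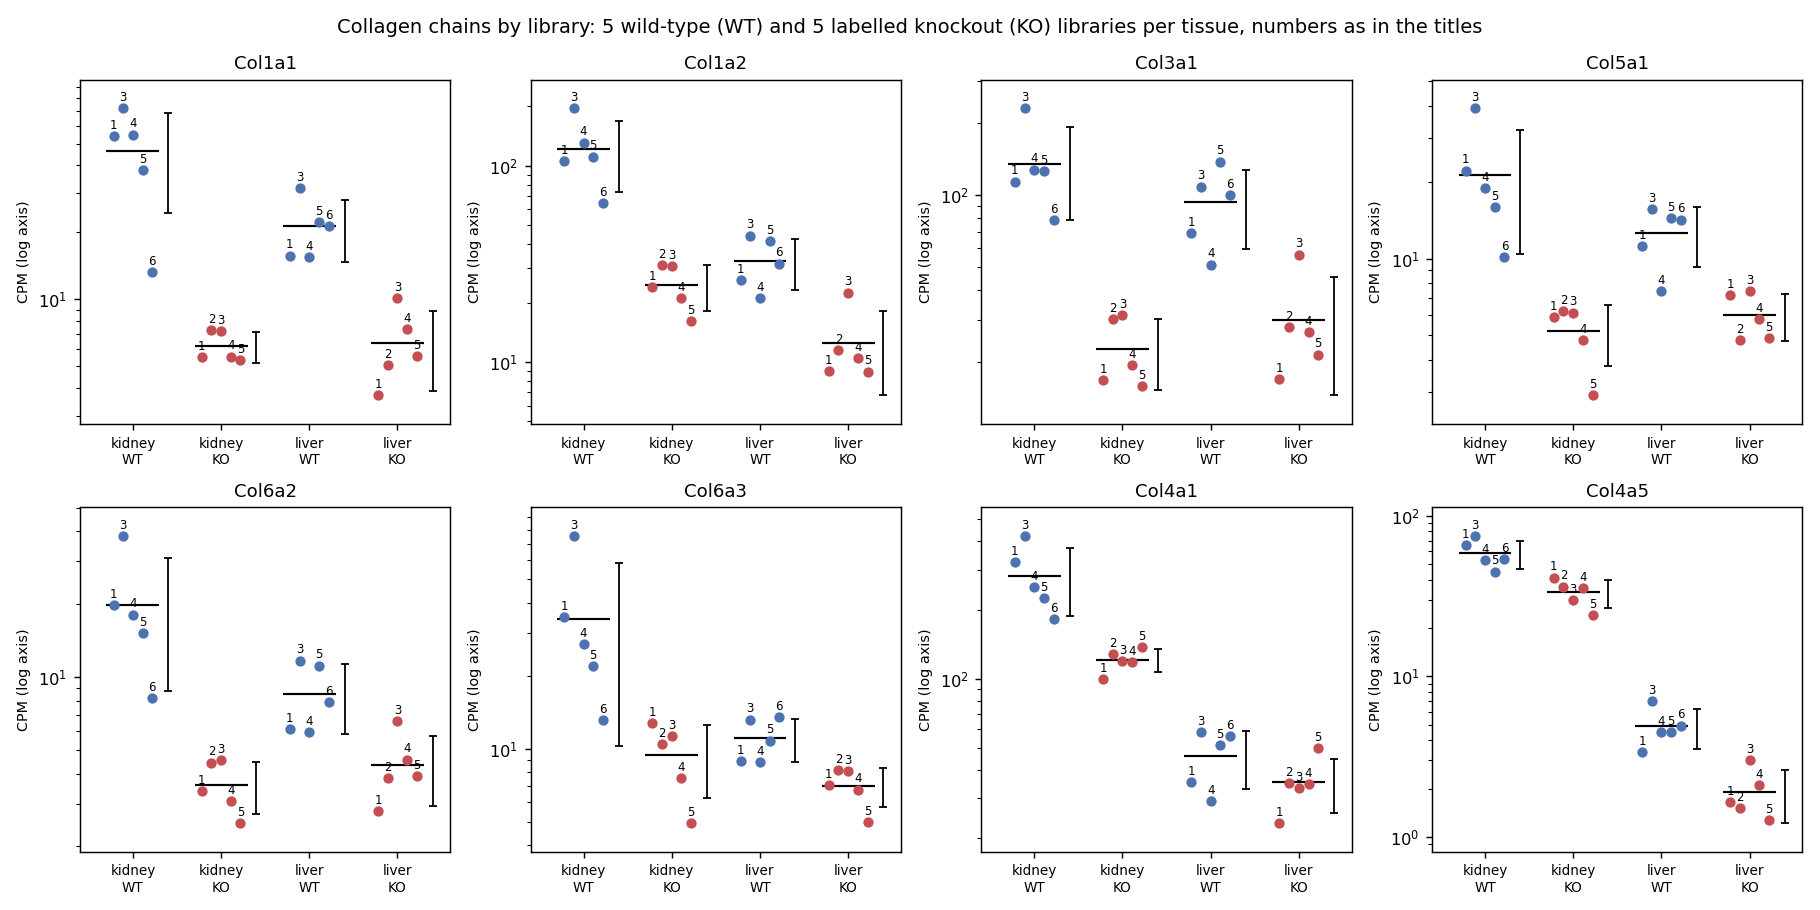
Points give CPM on a log axis for 8 chains in each library, numbered as in the sample titles, for wild-type (WT, blue) and labelled knockout (KO, red) kidney and liver, with the mean (horizontal line) and SD (bar, n = 5). In all 8 chains the labelled knockout kidneys lie below every wild-type kidney, and wild-type kidney 3 is the highest. In liver the groups are separate for Col1a1, Col5a1, Col6a3 and Col4a5 only.

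Among the basement membrane chains, the pair found in nearly all basement membranes was lower. Col4a1 (ENSMUSG00000031502, chr8:11198423-11312826, minus strand) was at 325, 422, 252, 226 and 183 CPM in wild-type kidneys 1, 3, 4, 5 and 6 and at 100, 128, 120, 119 and 138 CPM in the labelled knockouts. Col4a2 (ENSMUSG00000031503, chr8:11312805-11449287, plus strand) was at 263, 375, 193, 171 and 124 CPM and at 86.0, 97.8, 111, 100 and 106 CPM. The labelled knockout kidneys were tightly grouped, and all lay below wild-type kidney 6. Both chains were lower by a similar amount: -1.22 on the log2 scale (SE 0.23, adjusted p = 0.0171) for Col4a1 and -1.17 (SE 0.26, adjusted p = 0.0362) for Col4a2. As annotated, these genes overlap head to head by 22 bases, so the counting of a few reads at their starts depends on the use of strand, which is not given in the sources used here.

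The glomerular chains Col4a3 and Col4a4 did not pass the test. Col4a3 was at 287, 231, 220, 274 and 235 CPM in the wild-type and 215, 185, 199, 213 and 207 CPM in the labelled knockout kidneys, so the groups did not overlap, yet the fitted difference was -0.29 with a 95% interval of -0.60 to 0.02 (adjusted p = 0.316). For Col4a4, whose start lies 71 bases from that of Col4a3, values overlapped: 195 ± 16.3 against 216 ± 44.4 CPM (-0.15, 95% interval -0.50 to 0.19, adjusted p = 0.621). Col4a5, the third chain of that network, was at 65.5, 74.7, 52.9, 44.8 and 53.6 CPM in the wild-type and 41.2, 36.3, 30.0, 35.3 and 23.9 CPM in the labelled knockout kidneys, without overlap (-0.81, SE 0.19, adjusted p = 0.0429). It was the called chain nearest to the threshold. Col4a6, which pairs with Col4a5 in other basement membranes, overlapped between genotypes and was not called (-0.97). Thus 3 of 6 type IV chains were lower and none higher.

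All 3 classical chains of type VI collagen, which assemble with one another, were lower. Col6a1 was at 33.0, 75.8, 29.1, 22.4 and 11.7 CPM in wild type and at 6.65, 6.70, 9.73, 5.54 and 5.37 CPM in the labelled knockouts (-2.34, SE 0.40, adjusted p = 0.0123). Col6a2 was at 3.59 ± 0.882 against 19.9 ± 11.1 CPM (-2.46, SE 0.35, adjusted p = 0.00437), and Col6a3 at 9.37 ± 3.13 against 34.4 ± 24.1 CPM (-1.87, SE 0.41, adjusted p = 0.0339). None of the 3 overlapped between genotypes, and wild-type kidney 3 was the highest by far in each. Col6a6, an α3-like chain, was at 14.3, 37.0, 10.1, 6.41 and 10.2 CPM and at 2.88, 3.94, 3.48, 5.80 and 5.64 CPM (-1.84, SE 0.42, adjusted p = 0.0393). The remaining α3-like chains, Col6a4 and Col6a5, were near the limit of the test at under 3 CPM and were not called (-0.79 and -1.16).

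Outside these classes, Col15a1, a basement membrane zone proteoglycan, was at 45.6, 65.4, 36.0, 25.4 and 13.6 CPM in the wild-type and 8.44, 11.0, 8.77, 5.42 and 4.05 CPM in the labelled knockout kidneys (-2.30, SE 0.38, adjusted p = 0.0120). Its relative Col18a1, the source of endostatin, overlapped between genotypes at 99.5 ± 11.1 and 155 ± 55.0 CPM (-0.63, adjusted p = 0.173). Col14a1, a fibril-associated chain, was at 17.0 ± 5.18 against 59.6 ± 45.8 CPM without overlap (-1.81, SE 0.40, adjusted p = 0.0364), and wild-type kidney 3 alone reached 140 CPM. None of the 3 anchoring fibril and short chain network members tested, 2 transmembrane members or Col26a1 was called by edgeR, with log2 differences of -1.12 to -0.05. Col26a1 alone of these had an unadjusted p under 0.05, and DESeq2 and limma voom both called it. The transmembrane chain Col23a1 was the closest to 0 of all 34 (-0.05).

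Col19a1 was the exception in direction. This fibril-associated chain, known from basement membrane zones of muscle and brain (ENSMUSG00000026141, chr1:24261890-24587472, minus strand), was at 0.262, 0.161, 0.617, 0.0303 and 0.130 CPM in wild type, values that rest on 11, 3, 16, 1 and 4 counts. In labelled knockout kidneys 1 to 5 it was at 1.65, 1.57, 1.22, 3.28 and 1.79 CPM, from 48, 45, 33, 87 and 53 counts. Every labelled knockout kidney was above every wild type, and number 4 was the highest. The fitted difference was 2.98 (SE 0.54, adjusted p = 0.0155), and without labelled knockout kidney 4 it was no longer called (adjusted p = 0.0570). In liver Col19a1 had 0 counts in all 10 libraries, which hold 282111955 counts in all and so allow up to 0.0106 CPM over the tissue (3 counts; counting error only).

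**Figure D3:**
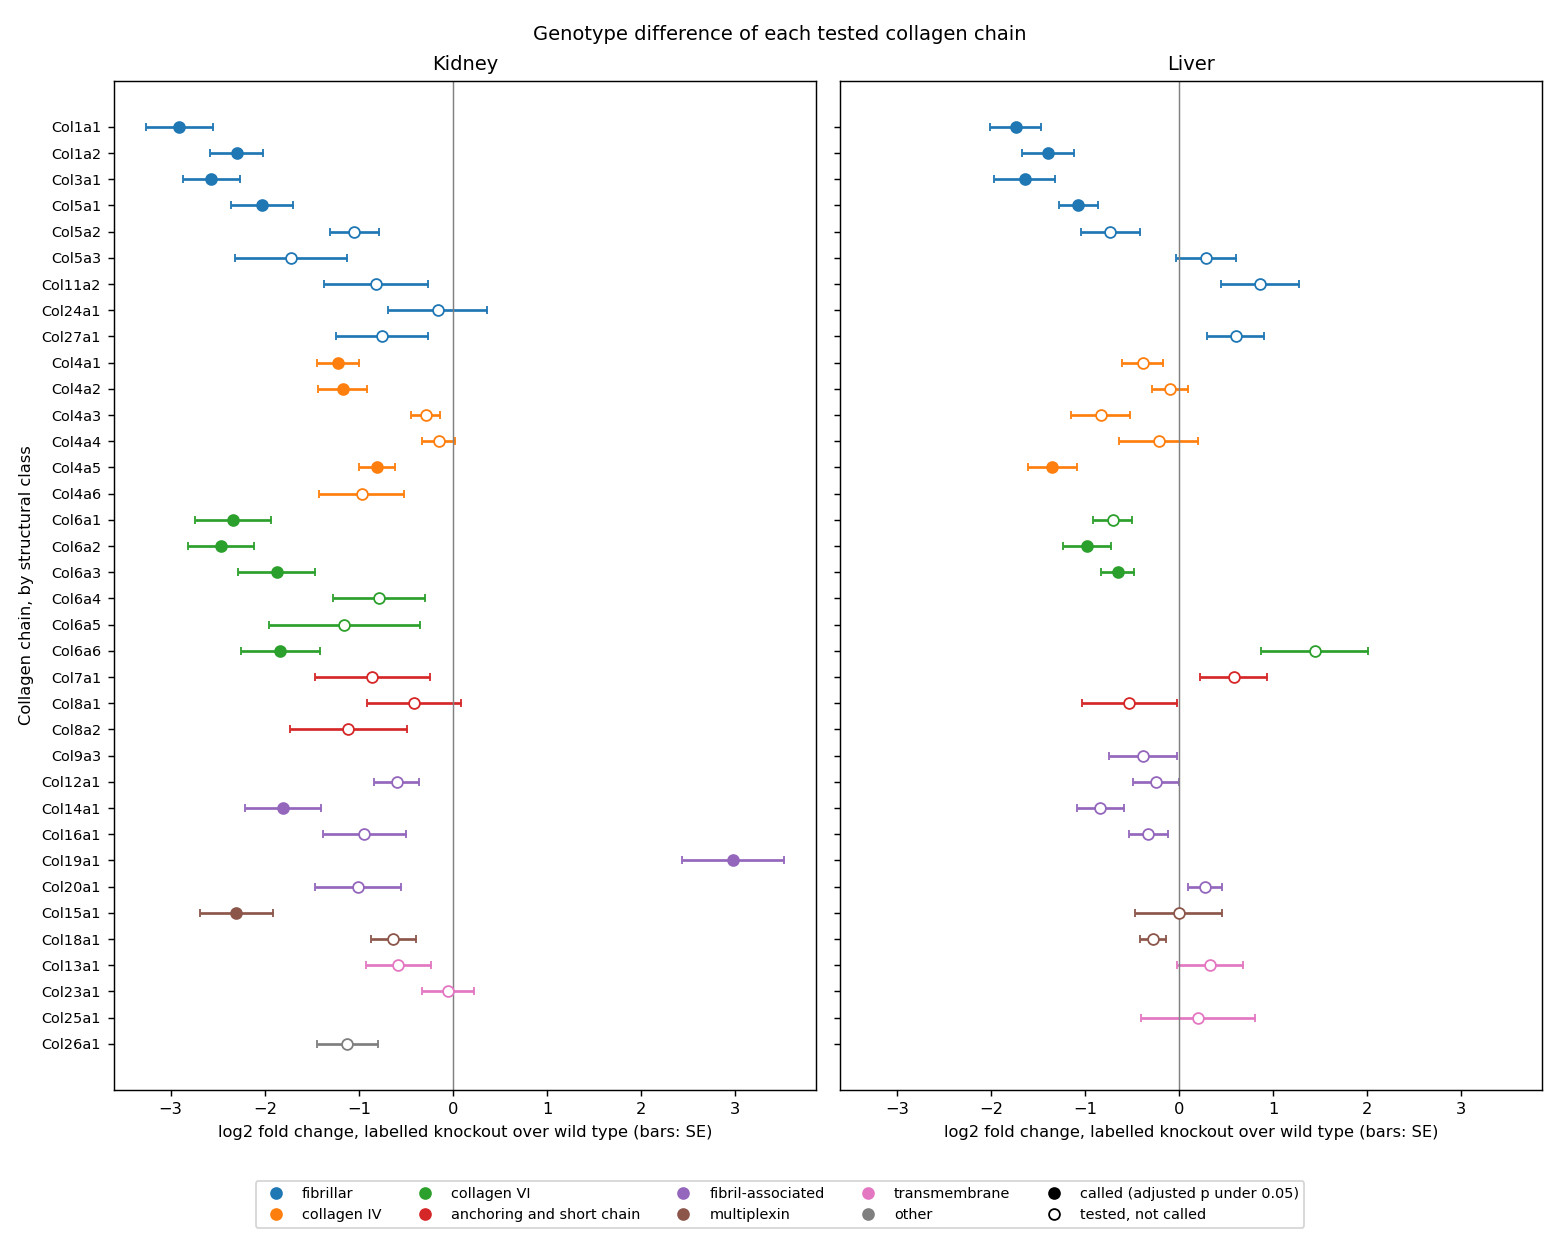
Each point is the log2 difference of 1 tested chain, labelled knockout over wild type, with its SE, in kidney (left) and liver (right). Filled points passed the test. In kidney 33 of 34 points lie left of 0 and Col19a1 lies at 2.98, and in liver 20 of 28 points lie left of 0.

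Of the 13 lower chains, 7 remained called when any of the 10 kidneys was left out: Col1a1, Col1a2, Col3a1, Col5a1, Col6a1, Col6a2 and Col15a1. The other 6 lost the call without particular libraries: Col4a1 without labelled knockout kidney 1, 3, 4 or 5, Col6a3 and Col6a6 without wild-type kidney 1 or 4 or any labelled knockout kidney, Col14a1 without wild-type kidney 4 or 5 or any labelled knockout kidney, Col4a2 without any kidney but wild-type 3 or 6, and Col4a5 without any but wild-type 6. The number of lower chains fell to 7 without labelled knockout kidney 1, 3, 4 or 5. It was 8 without labelled knockout kidney 2 or wild-type kidney 4, and 17 without wild-type kidney 6. The share of all tested genes called in either direction moved too, from 2.26% in the main fit. It was 0.589% to 0.895% in the fits with 7, 2.35% and 1.05% in those with 8, and 5.51% without wild-type kidney 6. The adjusted p of the 6 chains that lost the call reached 0.0687 to 0.123 in the fits that left out 1 kidney. All 6 kept a negative difference.

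Some further chains were high in wild-type kidneys 1 and 3, and their mean in the labelled knockouts was not below that of wild-type kidneys 4, 5 and 6. Col16a1, a fibril-associated chain, was at 25.7 and 59.2 CPM in these kidneys, at 6.28 to 15.5 CPM in wild-type kidneys 4, 5 and 6, and at 11.8 to 13.1 CPM in the labelled knockouts. Col27a1 was at 136 and 307 CPM, then at 35.0 to 81.1 CPM, and at 39.0 to 130 CPM in the labelled knockouts. Col7a1, the anchoring fibril chain, was at 7.56 and 17.5 CPM, at 0.845 to 2.89 CPM, and at 1.96 to 4.29 CPM. For these 3 chains the log2 ratio of the labelled knockout mean to the mean of wild-type kidneys 4, 5 and 6 was 0.08, 0.26 and 0.75, whereas it was -2.52 for Col1a1, -2.28 for Col3a1 and -1.94 for Col6a2.

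**Figure D4:**
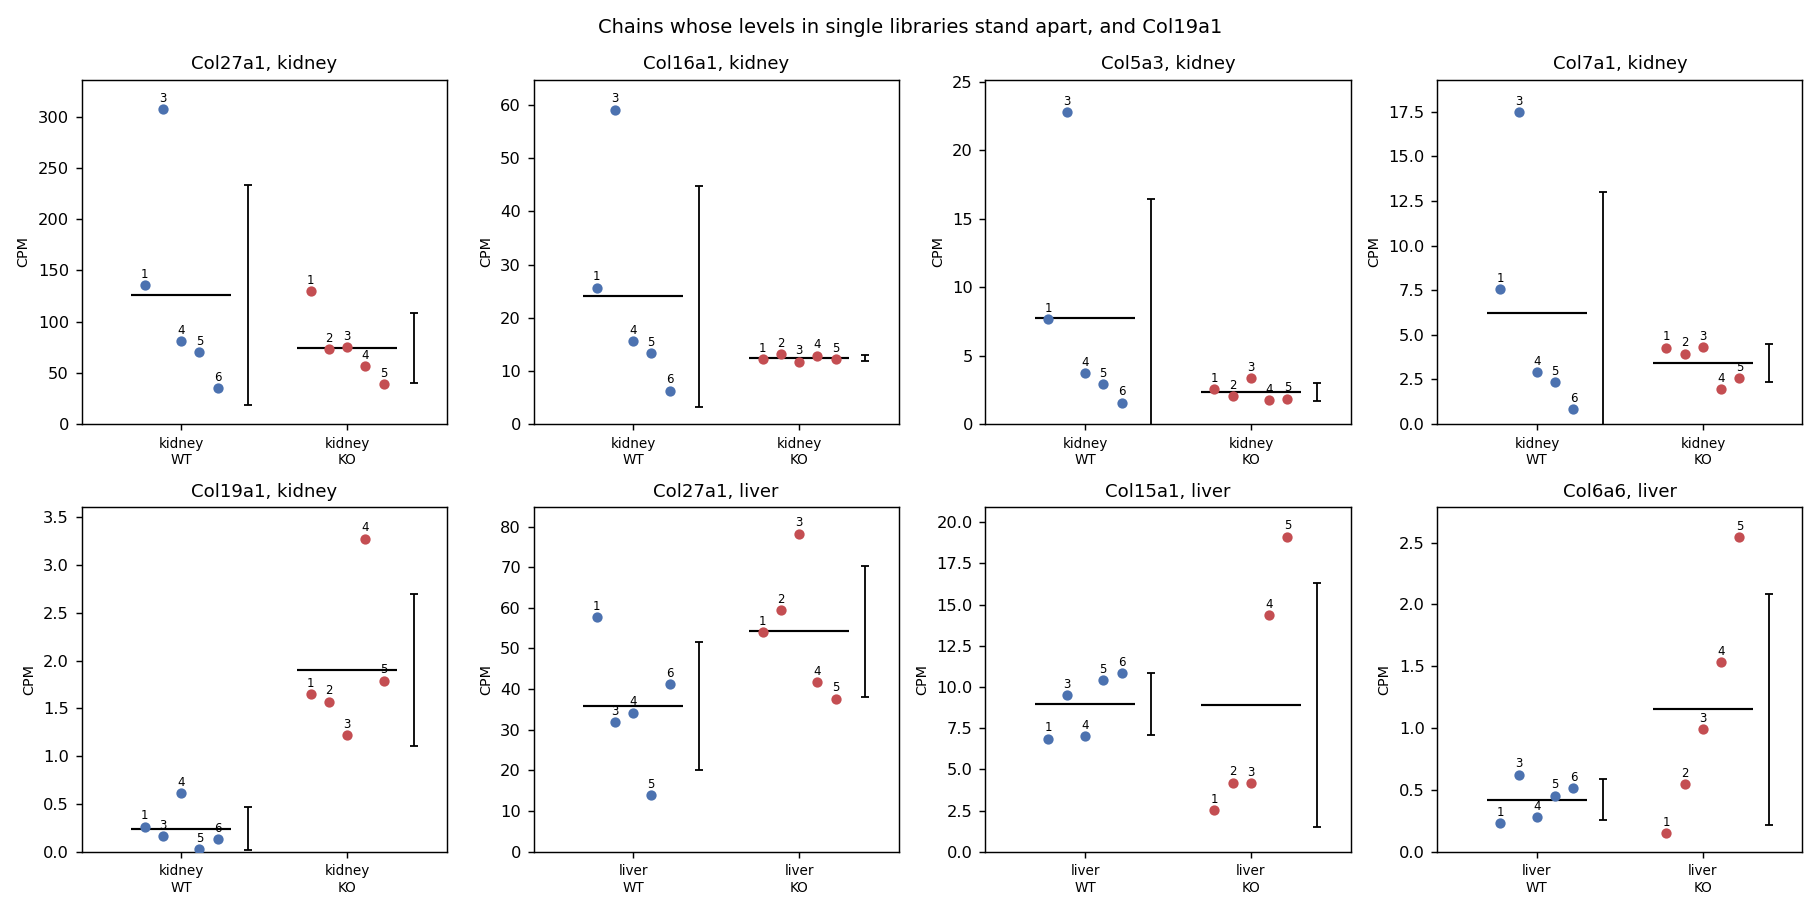
Points give CPM (linear axes from 0) in each numbered library for 5 chains in kidney and 3 in liver, with the mean (line) and SD (bar, n = 5; bars that pass 0 are cut at the axis). Wild-type kidneys 1 and 3 stand above the other wild types for Col27a1, Col16a1, Col5a3 and Col7a1, and labelled knockout livers 4 and 5 stand above all other livers for Col15a1 and Col6a6.

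In liver, 7 of the 28 chains tested were lower in the labelled knockout and none was higher, against a background of 4.08% of 14822 tested genes lower and 1.94% higher (edgeR). All 7 were among the 13 lower in kidney. The median difference was -0.36, against -0.0032 over all tested genes, and 20 of 28 were negative. The groups did not overlap for 4 chains (6.95% of all tested genes). Of the 16 chains not tested, none had more than 57 counts in a library. The share of counts from all collagens was 0.0981% to 0.126% in labelled knockout and 0.133% to 0.179% in wild-type liver, without overlap, and most of it was multiplexin.

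Col1a1 was at 15.8, 31.6, 15.5, 22.3 and 21.4 CPM in wild-type livers 1, 3, 4, 5 and 6 and at 3.71, 5.07, 10.2, 7.37 and 5.55 CPM in labelled knockout livers 1 to 5. All labelled knockout livers lay below all wild types, with a mean 3.34-fold lower (-1.74, SE 0.27, adjusted p = 0.00203). Col1a2 was at 26.1, 44.1, 21.2, 41.1 and 31.7 CPM and at 8.99, 11.5, 22.6, 10.5 and 8.95 CPM (-1.40, SE 0.27, adjusted p = 0.00930). Col3a1 was at 69.4, 108, 51.1, 138 and 100 CPM and at 17.0, 28.0, 56.3, 26.8 and 21.5 CPM (-1.64, SE 0.32, adjusted p = 0.00988). In both, labelled knockout liver 3 was the highest of its group and passed wild-type liver 4, so the groups overlapped by that library.

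Col5a1 was at 6.01 ± 1.26 against 12.6 ± 3.33 CPM (-1.07, SE 0.21, adjusted p = 0.00908). The only type IV chain called was Col4a5, at 1.91 ± 0.689 against 4.88 ± 1.35 CPM (-1.35, SE 0.26, adjusted p = 0.00846). Both were without overlap. Col4a1 (35.2 ± 9.45 against 46.1 ± 13.1 CPM, -0.39, 95% interval -0.82 to 0.04) and Col4a2 (33.4 ± 6.20 against 35.7 ± 9.92 CPM, -0.10, 95% interval -0.47 to 0.27) overlapped and were not called. Of the type VI chains, Col6a2 was at 4.33 ± 1.40 against 8.55 ± 2.73 CPM with overlap (-0.98, SE 0.25, adjusted p = 0.0383). Col6a3 was at 7.02 ± 1.30 against 11.0 ± 2.25 CPM without overlap (-0.65, SE 0.17, adjusted p = 0.0450). Col6a1 was just outside the threshold (-0.71, adjusted p = 0.0675), as was Col14a1 (-0.84, adjusted p = 0.0751).

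The calls of Col1a1, Col1a2, Col3a1, Col4a5 and Col5a1 held when any of the 10 livers was left out. Those of Col6a2 and Col6a3 were lost without wild-type liver 3, 5 or 6 or labelled knockout liver 1, 2, 4 or 5. With labelled knockout livers 4 and 5 both left out, 3 chains were lower: Col1a1, Col4a5 and Col15a1. These livers had been picked by their high Col15a1 and Col6a6 values, so the Col15a1 call in this fit depends on that choice. Over all tested genes, 4.14% were then called in either direction, against 6.02% in the main fit. Col15a1 was at 6.87, 9.52, 7.03, 10.4 and 10.9 CPM in the wild-type livers and at 2.55, 4.19, 4.17, 14.4 and 19.1 CPM in the labelled knockouts. Labelled knockout livers 1, 2 and 3 were below every wild type and livers 4 and 5 above every wild type, and the fit over all 10 gave -0.01 (95% interval -0.91 to 0.90). Col6a6 was also highest in labelled knockout livers 4 and 5, at 1.53 and 2.55 CPM against 0.233 to 0.625 CPM in wild type, and was not called (1.44, adjusted p = 0.172).

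Marker lists were read in liver in the same way. The fibroblast, pericyte and stellate markers summed to 89.0 to 185 CPM in labelled knockout and 121 to 225 CPM in wild-type liver (1 of 11 tested lower, Postn; median -0.06). The endothelial markers summed to 80.7 to 185 and 128 to 197 CPM (1 of 8 lower, Cdh5; median -0.30). The 8 leukocyte markers summed to 26.9 to 42.6 and 40.5 to 53.5 CPM (3 of 7 tested lower; median -1.21). The 7 hepatocyte markers summed to 75407 to 106536 and 110857 to 149707 CPM, without overlap. Alb was the only one of them called (-0.75, SE 0.20, adjusted p = 0.0435), and the list median was -0.15. For comparison, 4.08% of all tested genes were lower in liver and 1.94% higher. The smooth muscle markers summed to 6.90 to 76.3 and 10.7 to 27.3 CPM (0 of 3 tested called by edgeR, DESeq2 or limma voom, median 0.67). Cholangiocyte markers summed to 45.9 to 141 and 68.1 to 163 CPM (1 of 5 higher). Pancreas markers summed to 44.0 to 87.4 and 13.5 to 21.7 CPM, without overlap (1 of 1 tested higher). Also higher were 1 of 2 tested adrenal gland markers and the 1 proximal tubule marker tested. Col18a1, which made up most of the collagen share in liver, did not pass the test there (-0.28, adjusted p = 0.276). The part of the markers in the collagen values was not tested.

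Whether the genotype difference itself differed between tissues was tested over all 20 libraries. They were taken as independent, although kidney and liver may come from the same mice. The genotype difference differed between tissues for 1 of 36 chains, Col6a6. Col19a1 was among the 36, but with 0 counts in all 10 livers its difference could not be estimated (SE 5974). Col26a1, also among them, had at most 2 counts in any liver. The background was 1.51% of all 17606 tested genes in either direction and 0.568% with a lower kidney effect. Called or not, 29 of the 36 fitted values were negative, that is, lower in kidney. Their median was -0.93, against -0.04 over all tested genes. Without wild-type kidneys 1 and 3, 26 of 36 were negative and the median was -0.44, against 0.02 over all tested genes. The chains were not tested as a set. For Col6a6 the difference in kidney minus that in liver was -3.25 (SE 0.73, adjusted p = 0.0234). The call was lost without labelled knockout liver 5 (adjusted p = 0.0644), without wild-type kidneys 1 and 3, and without labelled knockout livers 4 and 5. Livers 4 and 5 had been picked partly by their high Col6a6 values, so the loss without them depends on that choice. Col15a1 came next at -2.28 (adjusted p = 0.0786). For Col4a1 and Col4a2, called in kidney and not in liver, the tested difference was -0.81 (adjusted p = 0.264) and -1.05 (adjusted p = 0.129), and for Col1a1 it was -1.15 (95% interval -2.03 to -0.26, adjusted p = 0.251). Without wild-type kidney 6, 6 chains were called: Col6a6, Col1a1, Col4a2, Col6a1, Col6a2 and Col15a1. In that fit 2.72% of all tested genes were called.

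In wild-type mice, kidney and liver were compared chain by chain, with libraries taken as independent. Of 34 chains tested, 18 were higher in kidney and 3 higher in liver, against backgrounds of 29.6% and 24.2% of 16645 tested genes. In either direction 21 chains were called, against 53.8% of all tested genes, so a call alone was common. All 6 type IV chains were higher in kidney. Col4a3 was at 242, 185, 180, 226 and 194 CPM in kidneys 1, 3, 4, 5 and 6 and at 1.40, 1.82, 1.03, 2.19 and 0.908 CPM in the livers (7.13, SE 0.29, adjusted p = 2.02e-10), and Col4a4 differed by 7.70 (SE 0.33, adjusted p = 3.19e-10). No library of either tissue came near the other. Col26a1 (7.11), Col4a6 (4.75) and Col6a6 (4.54) completed the 5 largest kidney excesses, and in liver Col26a1 rested on at most 2 counts a library.

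The 3 chains higher in liver were Col18a1, Col5a3 and Col13a1. Col18a1 was at 189, 148, 129, 104 and 66.7 CPM in wild-type kidney and at 1139 ± 94.7 CPM in the livers (-3.16, SE 0.28, adjusted p = 4.21e-07). Col5a3, a minor fibrillar chain, was at 6.44, 18.3, 3.04, 2.39 and 1.29 CPM and at 151, 101, 86.6, 28.5 and 65.5 CPM (-3.80, SE 0.67, adjusted p = 0.000277). Col13a1, a transmembrane chain, differed by -2.88 at 0.510 ± 0.151 against 3.73 ± 1.03 CPM. None of the 3 overlapped between tissues. Without wild-type kidney 3 the number higher in liver was 8, and without kidneys 1 and 3 it was 9, with 15 higher in kidney. Over all genes, 4670 of 17000 and 5206 of 17122 were then higher in liver. Without kidneys 1 and 3, 5501 of the 17122 were higher in kidney. Of the main chains of fibrils, Col1a2 was higher in kidney by 1.24 and Col5a2 by 2.53 (SE 0.29, adjusted p = 4.57e-06). The other three did not pass the test: Col1a1 differed by 0.49 (95% interval -0.20 to 1.18), Col3a1 by -0.11 (-0.71 to 0.48) and Col5a1 by 0.11 (-0.50 to 0.72). Scaling mattered here: by library size alone the median over all genes moved from 0.05 to 0.69, and 22 chains were higher in kidney with the same number, 3, higher in liver. Over all genes, the calls then split into 8536 higher and 2166 lower in place of 4921 and 4033.

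Levels per length, in CPM per kilobase, allow chains to be ranked. In wild-type kidney the order began with Col4a1 (29.9 ± 9.52), Col4a2 (26.9 ± 11.2), Col4a3 (19.9 ± 2.60), Col18a1 (17.5 ± 6.28), Col4a4 (16.2 ± 3.51) and Col3a1 (10.9 ± 4.31), and neighbours in this order differed by less than the larger of their SDs except for Col4a4 and Col3a1, whose ranges still met. In labelled knockout kidney Col4a3 (16.6 ± 0.996) and Col4a4 (14.9 ± 1.23) ranked first, ahead of Col4a1 (13.2 ± 1.65) and Col4a2 (12.3 ± 1.28). Col3a1, at 1.88 ± 0.618, moved from rank 6 to rank 10. In wild-type liver Col18a1 stood far above the rest at 157 ± 12.9, followed by Col5a3 (12.3 ± 6.45), Col3a1 (11.8 ± 4.35), Col14a1 (8.66 ± 2.53) and Col4a1 (7.64 ± 2.15). In labelled knockout liver Col18a1 (131 ± 20.3) and Col5a3 (15.1 ± 2.13) kept the first ranks and Col3a1 (3.81 ± 1.94) was at rank 7. Among the smaller classes the leading levels in wild-type kidney and liver were 6.18 and 2.99 for Col6a1, 0.360 and 0.0595 for Col23a1, and 0.107 and 0.785 for Col13a1. Of the anchoring fibril and short chain network class, Col7a1 led in kidney (0.475, against 0.429 for Col8a1) and Col8a1 in liver (0.0995, against 0.0824 for Col7a1).

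The deposited gene lengths join all exons of a gene, and for Col1a2 this is 12426 bases against 5348 in its longest protein-coding transcript of GENCODE M21. By transcript length, an alternative added after the data were seen, Col1a2 stood at 17.9 in wild-type kidney in place of 7.72. Col3a1 then stood at 19.2. In wild-type kidney Col4a1, Col4a2, Col4a3 and Col18a1 remained the 4 highest, and Col4a4 moved from rank 5 to rank 7, behind Col3a1 and Col1a2. In wild-type liver Col3a1 (20.8) passed Col5a3 (13.7) to rank 2. In labelled knockout liver Col3a1 (6.71) moved from rank 7 to rank 4, so the order below Col18a1 depends on the length used. Col8a1 then also led Col7a1 in wild-type kidney (0.658 against 0.529).

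**Figure D5:**
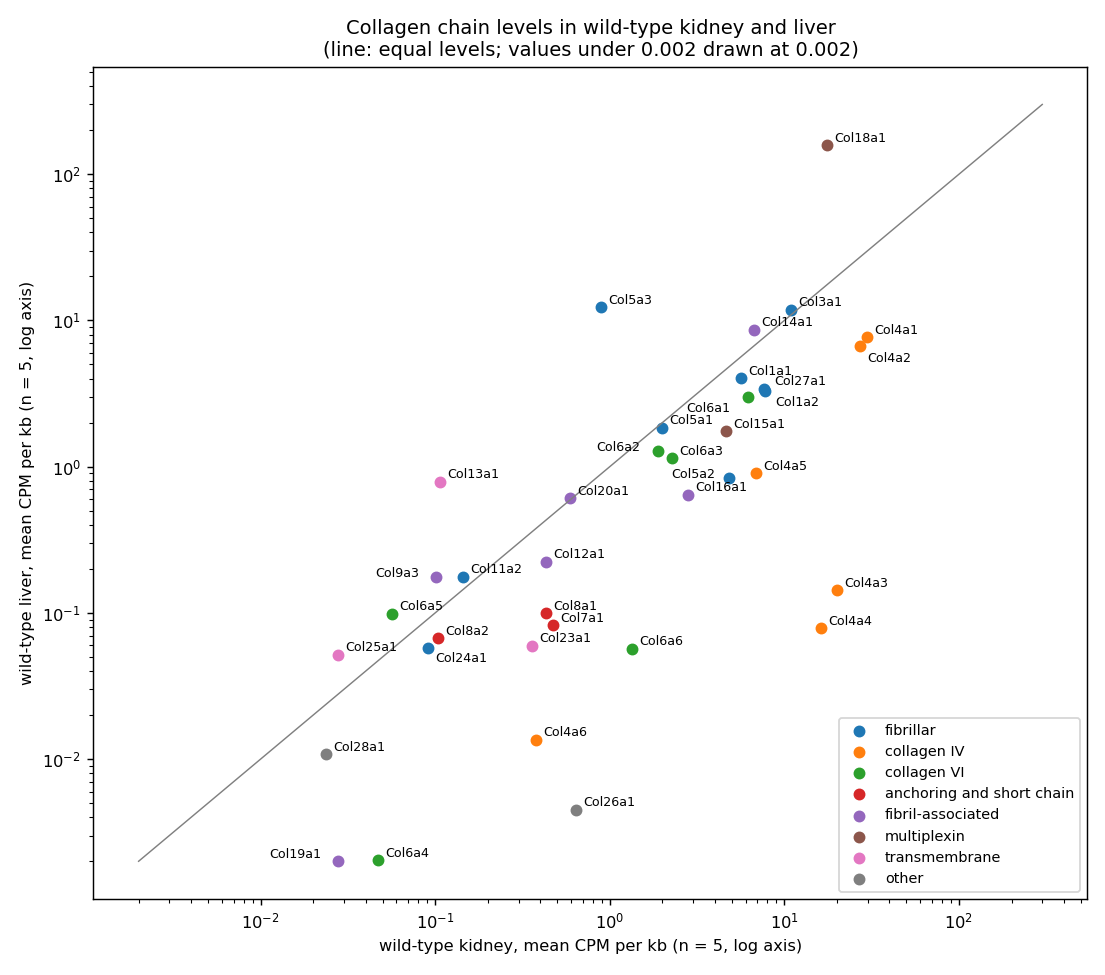
Each point is 1 chain, by its mean CPM per kilobase in wild-type kidney (x, log axis) and wild-type liver (y, log axis), n = 5 each; chains under 0.02 in both are left out and Col19a1, with 0 counts in liver, is drawn at the lower edge. The type IV chains lie below the line of equal levels, with Col4a3 and Col4a4 farthest, and Col18a1, Col5a3 and Col13a1 lie above it.

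Chains that assemble with one another were compared as ratios within a library, which needs no scaling between libraries. For 5 pairs in 2 tissues, 10 comparisons in all, no difference passed an exact two-sided permutation test after Benjamini-Hochberg adjustment. With 5 against 5 libraries the smallest p is 0.00794, and a single ratio at that p has an adjusted p of 0.0794 over the 10, so 1 ratio alone could not pass. Col4a1 to Col4a2 in liver reached it: the mean log2 ratio was -0.12 ± 0.14 in labelled knockout and 0.19 ± 0.10 in wild type (n = 5 each), a difference of -0.31 with no overlap (exact p = 0.00794, adjusted 0.0794). Col5a1 to Col5a2 in kidney differed by -0.93 (exact p = 0.0317, adjusted 0.132), and Col6a1 to Col6a2 in liver by 0.27 (exact p = 0.0397, adjusted 0.132). Col1a1 to Col1a2 differed by -0.47 in kidney (exact p = 0.103, adjusted 0.198) and by -0.34 in liver (exact p = 0.0952, adjusted 0.198). The remaining 5 comparisons differed by -0.49 to 0.22 with overlap.

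Genes that act on collagen were counted by role. Some of the marker sums given above were separate between genotypes in the same libraries. Others overlapped, among them the fibroblast, pericyte and stellate sums in kidney and in liver. The part of the markers in these lists was not tested. Among the enzymes and chaperones that hydroxylate and fold chains, 2 of 19 were lower in kidney and none higher (2.26% of all genes were called in either direction), with a list median of -0.31. Serpinh1, the collagen chaperone HSP47, was at 93.8 ± 19.0 against 170 ± 24.8 CPM (-0.86, SE 0.19, adjusted p = 0.0332), and Fkbp10, a prolyl isomerase, at 3.21 ± 0.849 against 8.34 ± 2.91 CPM (-1.37, SE 0.27, adjusted p = 0.0238). Next by p came P3h3 (-0.89, adjusted p = 0.141) and Colgalt2 (-0.48, adjusted p = 0.163). In liver, where 4.08% of all tested genes were lower, 1 of 19 was lower, Crtap, a part of the prolyl 3-hydroxylation complex (-0.55, SE 0.15, adjusted p = 0.0445), and the list median was 0.02. P4ha2, Colgalt2 and Serpinh1 followed without a call (0.80, 1.10 and -0.49). Leaving out any liver but wild-type liver 1 ended the call of Crtap.

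Among the genes that trim procollagen and cross-link fibrils, 3 of 13 were lower in kidney (against 1.87% of all tested genes, median -1.17). Loxl2, a lysyl oxidase, was at 3.95 ± 1.03 against 12.6 ± 1.72 CPM (-1.67, SE 0.22, adjusted p = 0.00273), Adamts2, the procollagen N-proteinase, at 2.46 ± 0.847 against 7.40 ± 1.77 CPM (-1.58, SE 0.27, adjusted p = 0.0123), and Lox at 1.77 ± 0.438 against 4.51 ± 0.957 CPM (-1.35, SE 0.25, adjusted p = 0.0177). The groups did not overlap for any of the 3. Loxl1 was just outside the threshold (-1.08, adjusted p = 0.0503). In liver 2 of 11 were lower (against 4.08% of all tested genes; median -0.55): Pcolce2, an enhancer of C-propeptide removal, at 0.190 ± 0.148 against 1.68 ± 0.360 CPM (-3.14, SE 0.47, adjusted p = 0.00175), and Adamts2 at 4.69 ± 1.02 against 8.61 ± 2.16 CPM (-0.88, SE 0.20, adjusted p = 0.0224). Pcolce (-0.55) and Loxl2 (-1.08) were not called there, with adjusted p of 0.0784 and 0.0821.

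The proteins that share fibrils and basement membranes with collagen gave the largest number of calls among these 6 lists. In kidney 9 of 16 were lower (against 1.87% of all tested genes) and none higher, with a list median of -1.20. Sparc, a collagen-binding matricellular protein, was at 85.5 ± 27.3 against 271 ± 56.4 CPM (-1.67, SE 0.25, adjusted p = 0.00638). Fbn1, of microfibrils, was at 5.86 ± 1.10 against 23.8 ± 13.9 CPM (-2.02, adjusted p = 0.0102), Eln, elastin, at 9.73 ± 3.41 against 31.8 ± 10.8 CPM (-1.71, adjusted p = 0.0120), and Lamc1, the laminin γ1 chain, at 24.1 ± 3.03 against 47.0 ± 9.77 CPM (-0.97, adjusted p = 0.0127). Each of these 4 was without overlap. In liver 4 of 16 were lower (against 4.08% of all tested genes; median -0.41): Sparc (-1.27, adjusted p = 0.00275), Lamc1 (-0.69, adjusted p = 0.0167), Nid1, which links laminin to type IV collagen (-1.05, adjusted p = 0.0195), and Eln (-1.52, adjusted p = 0.0354).

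Of the genes of collagen breakdown, 4 of 11 tested were lower in kidney: Ctsk, Mmp2, Mmp14 and Mrc2. Their adjusted p was 0.0443 to 0.0492 (edgeR), the list median was -0.92, and 1.87% of all tested genes were lower there. Ctsk encodes cathepsin K, Mmp2 and Mmp14 encode matrix metalloproteinases, and Mrc2 encodes an endocytic collagen receptor that also stands in the receptor list. Each of the 4 calls was lost in at least 7 of 10 fits that left out 1 kidney. In liver 0 of 10 were called by edgeR (2 at an unadjusted p under 0.05), 1 by DESeq2 and 0 by limma voom, and the 4 with the smallest p were Mmp2 (-1.07), Mmp13 (1.51), Timp2 (-0.39) and Mmp9 (-0.65), with adjusted p of 0.104 to 0.355. Among collagen receptors, Mrc2 was the only call of 8 in kidney (list median -0.86), where 1.87% of all tested genes were lower. Next by p came Ddr2, a receptor tyrosine kinase for fibrillar collagen (-0.78, adjusted p = 0.0663), Lair1 (-0.93) and Itga1 (-0.31). In liver 0 of 7 were called by edgeR, DESeq2 or limma voom, with 0 at an unadjusted p under 0.05, and Itga10, Itga1, Mrc2 and Itgb1 differed by 0.67, -0.22, 0.46 and -0.22.

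The TGF-beta pathway is a known driver of collagen transcription, and its list median in kidney was -0.49. Against 1.87% of all tested genes, 2 of its 13 genes were lower there and none higher. They were Tgfbi, a secreted collagen-binding target, at 8.62 ± 1.49 against 15.5 ± 2.16 CPM (-0.85, SE 0.18, adjusted p = 0.0272), and Tgfb2, a ligand, at 1.10 ± 0.266 against 2.70 ± 0.820 CPM (-1.29, SE 0.29, adjusted p = 0.0370). The ligand Tgfb1 (-1.25, adjusted p = 0.0715) and the signal transducer Smad3 (-0.53, adjusted p = 0.157) were not called. In liver 1 of 13 was lower, against 4.08% of all tested genes: the receptor Tgfbr2, at 19.7 ± 3.24 against 37.4 ± 10.7 CPM with overlap (-0.93, SE 0.20, adjusted p = 0.0144). Tgfbi, Tgfb1 and Tgfb2 differed there by -0.41, -0.29 and -0.38 without a call. In fits that left out 1 library, the calls of Loxl2, Adamts2, Sparc, Fbn1 and Eln held throughout in kidney, and those of Sparc, Pcolce2 and Tgfbr2 in liver. In kidney, Lamc1 lost its call without labelled knockout 4 or 5, Lox without labelled knockout 1, 3, 4 or 5, Fkbp10 without wild-type 5 or labelled knockout 1, 4 or 5, Serpinh1 and Tgfbi without wild-type 4 or 5 or labelled knockout 1, 3, 4 or 5, and Tgfb2 without any of these or wild-type 1. In liver, Lamc1 lost it without wild-type 3, Nid1 without wild-type 6, Adamts2 without wild-type 3, 5 or 6 or labelled knockout 2 or 4, and Eln without wild-type 3, 5 or 6 or labelled knockout 1, 2, 4 or 5.

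For 28 of the 44 chains another annotated gene overlaps the locus. For 6 chains (Col4a1, Col4a2, Col10a1, Col18a1, Col20a1 and Col25a1) an overlapping gene had over 10% of the chain's own counts over all libraries. Slc19a1 had 28253 counts beside 269866 for Col18a1, 9230112E08Rik had 1630 beside 1542 for Col20a1, and Nt5dc1 had 11424 beside 27 for Col10a1, which was not tested. Col4a1 and Col4a2, with 69786 and 56468 counts, overlap each other. Reads of such neighbours on opposite strands could not be told apart if the counting ignored strand.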

How the data were processed

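RNA-seq of 10 kidney and 10 liver libraries was used as the deposited table of raw counts per gene. Per the submitters' processing notes the tools named are HISAT2 2.0.5, StringTie and DESeq2 1.16.1 with the build mm10; the counter and its use of strand are not given in the sources used here. The table holds 54532 genes and 0 measurement columns outside these 20 samples; a deposited table of log2 FPKM was not used. Counts were tested with edgeR 4.0.16 (R 4.3.3): filterByExpr with a minimum count of 10, TMM, quasi-likelihood F test, Benjamini-Hochberg over all genes tested, called at an adjusted p under 0.05, separately in kidney, in liver, in the wild types and, for the difference between tissues, over all 20 libraries with 4 group means. SE is the absolute log2 difference over the square root of F. The 95% intervals use this SE with a normal quantile, so they are narrower than the F test would give. An interval can thus leave out 0 at an unadjusted p over 0.05. CPM of chains and listed genes use TMM-scaled library sizes of the comparison. Marker sums, levels per length and the CPM of Nr1h3, Alb and Slc34a1 use those over all 20 libraries. The scale of these values thus differs from that of the chain CPM. Chain ratios used log2 counts per kilobase after adding 0.5 counts. The scripts were tested on simulated data.

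Alternatives were DESeq2 1.42.0, its size factors, no TMM, no filter, limma 3.58.1 voom with quality weights, no mitochondrially encoded genes, replicate numbers as a block, and leaving out libraries. All chains with a call in kidney, liver or the difference were named, as were the highest per-length chain of each class, up to 5 chains at each end of the called tissue differences and up to 4 genes of smallest p per list and tissue; further chains were chosen after their values were seen (Col4a3, Col4a4, Col5a2, Col16a1, Col27a1, Col7a1, Col6a4, Col6a5 and others beside a threshold). Members and lists were chosen with earlier results of these data known. The leukocyte, cholangiocyte, pancreas, adrenal gland and proximal tubule markers called in liver are not listed by name here. Kidney and liver p-values measure the spread among the 5 libraries of a group.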

Additional observations from a re-analysis of the deposited data

Results flagged for a closer look

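In a group of 5 libraries a value was looked at again where its gap to the nearest other library was large for the range of the group (Dixon's test at the 95% level). Chance gives this in about 1 in 20 groups of independent, normally distributed values, and 5 of 42 groups had it. The groups here were untransformed CPM of called chains, and chains of 1 library can move together. That rate is therefore no yardstick for the 5. Col14a1 in wild-type kidney 3 was at 140 CPM, next to 51.6 CPM in the second highest wild-type kidney. Col6a6 in the same library was at 37.0 CPM, next to 14.3 CPM. Col19a1 in labelled knockout kidney 4 was at 3.28 CPM, next to 1.79 CPM. Labelled knockout liver 3 was high for both Col1a2, at 22.6 CPM next to 11.5 CPM, and Col3a1, at 56.3 CPM next to 28.0 CPM. The genotype difference of Col6a6 was lower in kidney than in liver by 3.25 on the log2 scale (value -3.25, adjusted p = 0.0234, edgeR), and it was no longer called without labelled knockout liver 5 (adjusted p = 0.0644). Over the fits that left out 1 library the value ran from -3.53 to -2.68.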

How the results depend on the processing

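Leaving out 1 library at a time gave 7 to 17 lower chains in kidney, 5 to 9 in liver, 0 to 6 with a lower kidney effect and 16 to 21 higher in wild-type kidney. Over all tested genes, the share called in either direction in these fits was 0.589% to 5.51%, 3.85% to 6.06%, 0.921% to 2.72% and 49.8% to 58.9%. Without labelled knockout livers 4 and 5, 3 chains were lower in liver (4.14% of all genes called) and 0 differed between tissues (0.961%). Both livers had been picked by their Col15a1 and Col6a6 values, so the results of these chains in that fit depend on the choice. Without wild-type kidneys 1 and 3, 0 differed between tissues (1.68%). With DESeq2, 4 chains had a lower kidney effect (1.76% of all genes called) and 16 were lower in kidney (3.34%). With no filter, 2 had a lower kidney effect (0.949%). With voom and quality weights the single chain with a lower kidney effect was Col6a1 in place of Col6a6. That fit also called 1 chain with a higher kidney effect, Col19a1, which had 0 counts in all 10 livers (3.87% of all genes called). Same-numbered libraries of the genotypes did not deviate together (correlations of 0.04 to 0.17 in kidney and -0.04 to 0.02 in liver). Nor did kidney and liver of 1 number in every case (-0.15 to 0.30 in wild type and -0.07 to 0.24 in labelled knockout). Wild-type 5 and labelled knockout 1 correlated best with their own number. Such correlations cannot decide whether tissues share animals. With 5 mice per genotype and 5 libraries of each tissue, kidney and liver may come from the same mice. The main tests between tissues took the libraries as independent. Blocking on the number from the titles (replicate block), 15 chains were lower in kidney, 4 in liver and 17 higher in wild-type kidney. Of all tested genes, 5.47%, 2.07% and 51.7% were then called in either direction. With the mouse, taken from genotype and title number, as a block, 1 chain had a lower kidney effect (1.03% of all genes called). Col15a1 in liver, near 0 in the fit over all libraries, turned positive with DESeq2 (0.014), its size factors (0.020) and without mitochondrially encoded genes (0.027), and ran from -0.49 to 0.25 over the fits with 1 liver left out, 6 of them positive. Col4a2 in liver was at 0.035 under the replicate block and ran from -0.21 to 0.046 over those fits. Over all genes, library size alone turned the liver calls from 288 higher and 605 lower to 216 and 766. The 10 chain ratios kept their direction with an offset of 5 counts and when any 1 library was left out. No cause was tested for these changes. Counts of 1 to 16 limit Col19a1 in wild-type kidney.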
